A study of Bombus terrestris with 70 samples.

Results

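The genes described here are 100 genes of the buff-tailed bumblebee Bombus terrestris whose messenger RNA was plentiful in both ovary and brain of control queens and scarce in their fat body. They were chosen by measured values. In the control libraries of the first time point, each gene's level was taken as its value scaled to parts per 1000000 of the library total (ppm) and averaged over the 6 libraries of a tissue. Genes above 20 ppm in ovary and brain whose 2 levels lay within a log2 difference of 3 were kept, which left 5131 of the 10230 genes found in all 3 tissue tables. The members are the 100 of these with the largest distance between the lower of the ovary and brain levels and the fat body level, on the scale of log2(ppm + 0.1). The last genes inside the list were LOC100647268 and LOC100648967, with a distance of 3.07 each, and the first outside were LOC100644639 and LOC100649741, with 3.05 each.

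Messenger RNA was sequenced from brain, fat body and ovary, with 1 tissue of a single queen per library. Queens of the egg removal treatment (R) lost their eggs to the experimenter, and for control queens (C) the removed eggs were returned, which gave both treatments the same handling. Queens were frozen when 10% (TP1) or 60% (TP2) of their cohort had died. The tables held 68 libraries: 6 in each ovary group, 6 in each brain group at TP1 and 5 at TP2, and 6 in each fat body group except control TP2 with 4. All groups are queens of one species and no genotype, strain or age in days is given, so the time points describe a cohort and not an age. Depth, estimated from the lowest values of each library, lay between 24.1 and 56.0 M reads for the brain. For the fat body it lay between 12.1 and 60.2 M, and for the ovary between 19.6 and 68.0 M.

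The insect brain is built of neurons and glia, which hardly divide in the adult. The ovary of a queen bee is a set of tubes in which germline cells divide and grow into eggs, fed by sister nurse cells and wrapped by follicle cells. The fat body does the work of both liver and fat tissue, and it makes vitellogenin, the yolk protein that the ovary takes up from the blood. In the fruit fly Drosophila, neurons and germline cells are known to share regulators that place and silence messenger RNAs, which both cell types use for local control of protein synthesis far from the nucleus. None of the 100 members could be tied to such a role here. The reference gene table held 97 of them and gave none a name other than its LOC number, so no function is stated for any member.

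The tissue labels could be checked against 1 marker. LOC100650436, the vitellogenin gene, took 0.0473% to 27.4% of the fat body libraries, 0.0014% to 1.50% of the brain libraries and at most 0.0176% of the ovary libraries. It was therefore high in most fat body libraries and near 0 in all ovaries, but the lowest fat body values, which are in control TP2, overlapped those of the brain. Markers of neurons, glia and germline could not be identified by name, so the brain and ovary labels were not tested. In whole tissues, fewer cells of a type and less RNA per cell cannot be told apart.

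In control TP1, where the members were chosen, their levels ran from 20.5 to 2713 ppm in the brain with a median of 79.5, from 20.2 to 1830 ppm in the ovary with a median of 82.6, and from 0.374 to 152 ppm in the fat body with a median of 3.91. These values describe the choice and support nothing further. LOC100647295 stood first, with 300 ppm in the ovary, 277 ppm in the brain and 3.37 ppm in the fat body. LOC100651036 followed with 47.7, 35.8 and 0.384 ppm in the same order of tissues. LOC100648691 had 58.0, 46.9 and 0.855 ppm, LOC100645988 had 161, 122 and 2.50 ppm, and LOC100650406 had 20.2, 20.5 and 0.374 ppm. All 5 thus had nearly equal levels in ovary and brain. The tissue tables were normalized separately, so levels set across tissues are shares of a library and no test was run between tissues.

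The other 3 groups of queens were not used in the choice, and the tissue pattern returned in all of them. Each of the 100 members had a higher mean in both ovary and brain than in fat body in egg removal TP1, control TP2 and egg removal TP2, as did 80.8%, 78.4% and 76.5% of the 5131 genes that met the level limits. The median distance to the fat body was 4.96 in egg removal TP1, 3.42 in control TP2 and 4.24 in egg removal TP2, against 3.80 in the libraries used for the choice. Had the same rule been applied to each group, 66, 51 and 81 of the members would have been chosen again. A distance above 3 was kept by 93, 68 and 97 members, while 5.57%, 1.66% and 3.14% of the 5131 genes that met the level limits reached it in these groups.

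Single libraries showed the same separation. In egg removal TP2 every ovary and every brain library lay above every fat body library for all 100 members, compared with 49.3% of the 5131 genes. The count was 98 members in egg removal TP1, against 49.9%, and 76 in control TP2, against 40.0%. The 24 members that overlapped in control TP2 included LOC100647295, LOC100651036, LOC100650406 and LOC100650764, and in that group 99 members had all brain libraries above the fat body but 76 had all ovary libraries above it. Over the 16 brain, 16 fat body and 18 ovary libraries of the 3 groups together, 74 members had no overlap, against 14.6% of the 5131 genes.

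**Figure D1:**
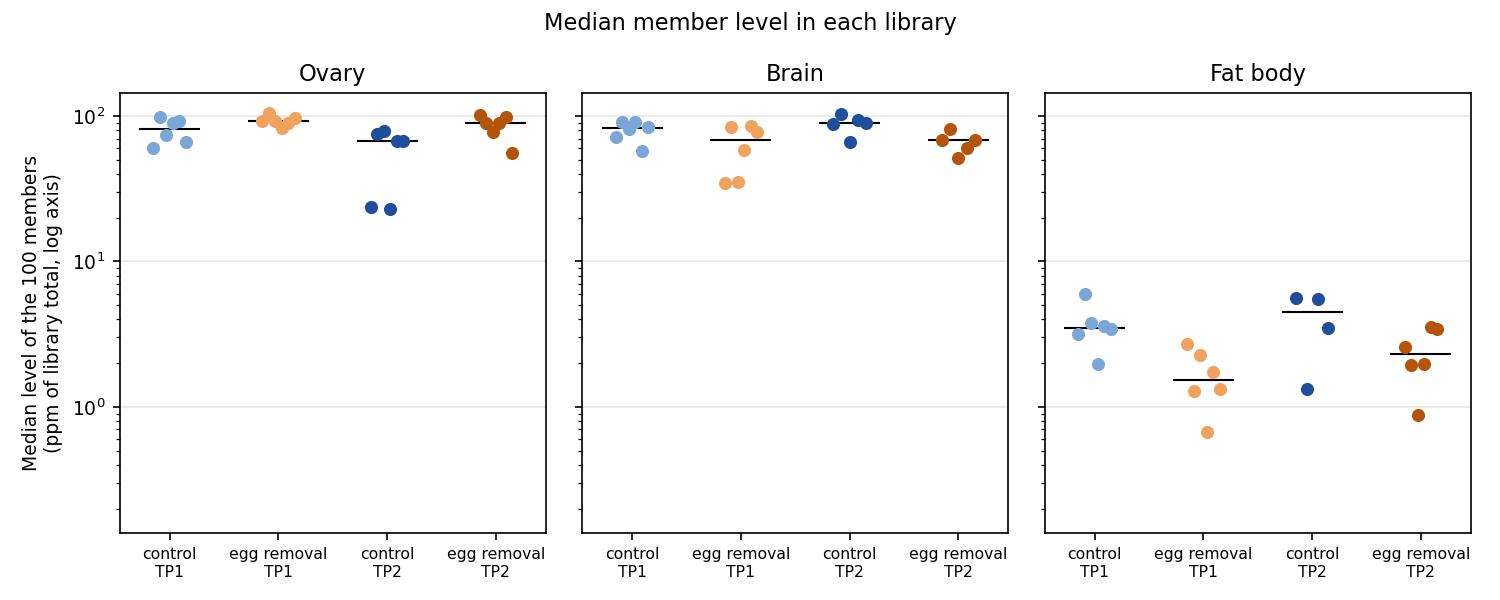
Median level of the 100 members in each library, in ppm of the library total on a log axis, by tissue and group; points are libraries and the line is the median over libraries. Ovary and brain libraries lie between 22.9 and 104 ppm and fat body libraries between 0.669 and 5.93 ppm, and 2 control TP2 ovaries (23.8 and 22.9 ppm) lie below the other ovaries.

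The plot of median levels shows which libraries set the pattern. In the ovary the library medians were 60.5 to 97.8 ppm in control TP1, 83.1 to 104 ppm in egg removal TP1 and 55.4 to 102 ppm in egg removal TP2. Control TP2 held 2 libraries at 23.8 and 22.9 ppm, replicates 1 and 4, and 4 libraries at 67.0 to 79.3 ppm. Replicates 1 and 4 also had the lowest estimated depth of all ovaries, 19.6 and 23.7 M reads. Every other ovary had at least 43.6 M, and the part of depth in the members' levels was not tested. Fat body medians were lowest in egg removal TP1, at 0.669 to 2.72 ppm. In those same libraries LOC100650436 took 15.7% to 27.4% of the total, against 2.74% to 16.1% in control TP1, which lowers the ppm of every other gene; its part in the members' levels was not tested. The fat body values were low but measured: 2 of the 2200 member values were 0, both of LOC100650406, and the scarcest member had about 9.83 reads per control TP1 library.

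Most calls among the members came from the ovary, in the comparisons that include control queens at TP2. With limma and Benjamini-Hochberg adjustment over 10401 genes, 60 members were called between egg removal and control at TP2 at an adjusted p under 0.05, a comparison that uses none of the libraries behind the choice. In all, 58.9% of genes were called, so the number of called members was near the background. Their direction was uneven: 50 were higher in egg removal and 10 lower, where 28.9% of all genes were called higher and 30.0% lower. Among the 5131 genes that met the level limits these shares were 35.5% and 23.5%. The median log2 change was 0.73 over the members, -0.04 over all genes and 0.12 over the genes within the limits. The members were chosen for high levels in control TP1 ovaries. Such genes may lie lower in any ovaries that stand apart from those, so this direction is a description and not independent of the choice. A change of at least 1 upwards was seen in 41 members, of at least 2 in 13 and of at least 3 in 6, and 7 members were lower by at least 1. The 2 groups did not overlap for 10 members that were higher, where 6.92% of all genes were, and for 1 that was lower, where 7.41% were.

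**Figure D2:**
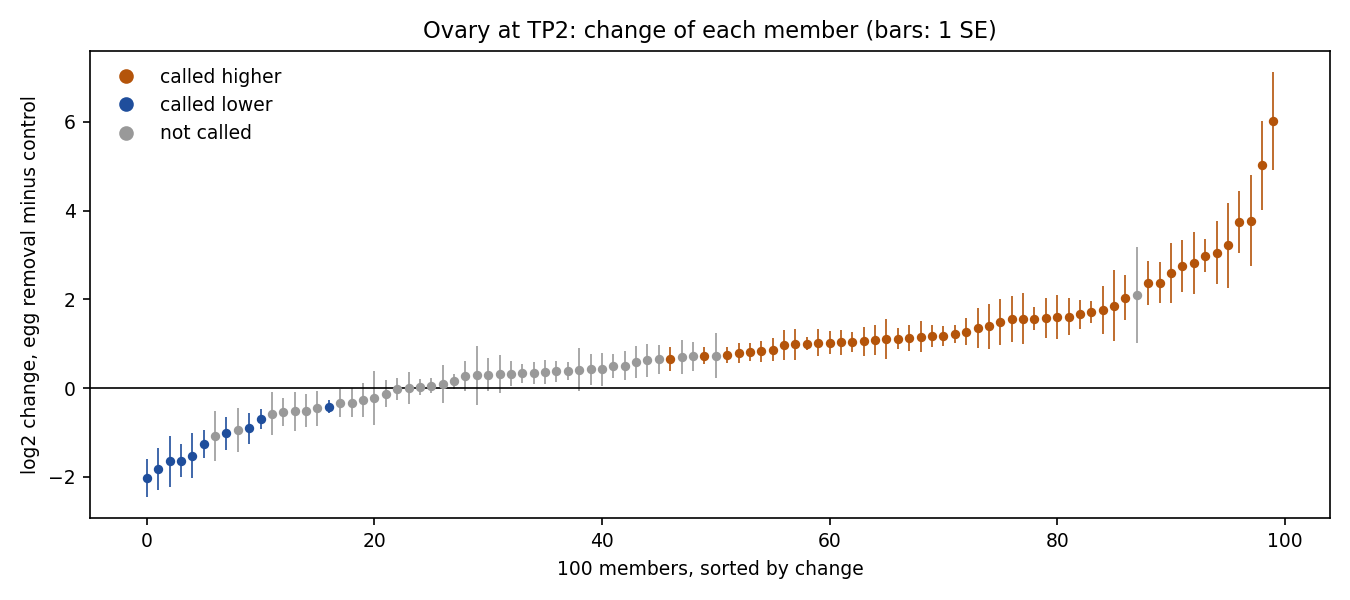
Change of each of the 100 members in the ovary at TP2, as log2 of egg removal over control with bars of 1 standard error, sorted; colour marks the 50 members called higher, the 10 called lower and the 40 not called. The changes run from -2.03 to 6.02 with a median of 0.73. The standard errors rest on a spread shared by all ovary groups.

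The steepest difference was that of LOC100647295, which was also the member with the largest distance under the rule. Control TP2 ovaries held 13.4, 46.3, 62.5, 58.9, 26544 and 529 normalized counts in replicates 1 to 6. Egg removal TP2 ovaries ranged from 8036 to 16612 with a median of 11419. Thus 5 control ovaries lay far below every egg removal ovary and the sixth, replicate 5, had more than any of them. At TP1 it was plentiful in both treatments, with medians of 16927 in control (lowest 2965) and 16518 in egg removal. The log2 change between treatments at TP2 was 6.02 ± 1.10 (SE, adjusted p = 0.000171 by limma). This SE rests on a spread shared by all ovary groups, so it understates the spread of the control TP2 ovaries. In the brain the same gene was plentiful in every library: control TP2 held 4749 to 11253 and egg removal TP2 11136 to 16083 normalized counts, with a log2 change of 0.85 ± 0.28 (SE) and an adjusted p of 0.0594 by limma.

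LOC100651036 followed the same course in the ovary. Its control TP2 values were 15.8, 13.8, 39.2, 10.2, 4578 and 166, and those of egg removal TP2 ran from 587 to 4957 with a median of 2774. Replicate 5 of control TP2 was again the high one, and the other 5 lay below all egg removal ovaries. The log2 change was 5.03 ± 1.00 (SE, adjusted p = 0.000331 by limma), and in the brain it was -0.27 ± 0.21 (SE, adjusted p = 0.466 by limma), with 867 to 1918 in control TP2 and 784 to 1451 in egg removal TP2.

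The next 3 members by distance under the rule differed among themselves. LOC100650406 ranged from 59.5 to 1115 in control TP2, with a median of 333, and from 421 to 1898 in egg removal TP2, with a median of 1287. Its log2 change was 2.04 ± 0.50 (SE, adjusted p = 0.00177 by limma), though the groups overlapped. LOC100645988 ranged from 649 to 11732 (median 3695) in control and from 3525 to 12601 (median 9588) in egg removal, a log2 change of 1.60 ± 0.50 (SE, adjusted p = 0.00951 by limma). LOC100648691 did not pass the test, with 639 to 22685 in control and 951 to 4060 in egg removal and a log2 change of -1.09 ± 0.57 (SE, adjusted p = 0.103 by limma).

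The 5 higher members with the smallest p all had control and egg removal groups that lay apart or nearly so. LOC100650764 had 214 to 1840 normalized counts in control TP2 (median 512) and 3247 to 6569 in egg removal TP2 (median 4306), without overlap, and a log2 change of 2.99 ± 0.38 (SE, adjusted p = 1.91e-05 by limma). LOC100642390 had 11499 to 21330 in control and 30914 to 32624 in egg removal. Its 6 egg removal ovaries were thus almost alike and all above the controls, with a log2 change of 1.00 ± 0.14 (SE, adjusted p = 2.47e-05 by limma). LOC100649588 had 708 to 1583 against 2131 to 4314, a log2 change of 1.71 ± 0.25. LOC100647734 had 880 to 2706 against 3155 to 4314, a log2 change of 1.22 ± 0.20. Neither of these groups overlapped. LOC100651776 had 1143 to 6666 against 5666 to 7140 and a log2 change of 1.57 ± 0.26, and its overlap came from control replicate 5 alone, since the other 5 controls were at or below 2372.

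Fewer members were lower in egg removal. LOC100645511 rose in control ovaries at TP2 to between 42712 and 488108 normalized counts (median 106372), where egg removal TP2 held 16729 to 64710 (median 25632). The highest egg removal library thus exceeded the 2 lowest controls, and the log2 change was -2.03 ± 0.42 (SE, adjusted p = 0.000427 by limma). LOC100649283 had 5005 to 41928 in control and 1145 to 4036 in egg removal, without overlap, and a log2 change of -1.64 ± 0.38. Its highest value, in control replicate 1, was far above the next, 7584. LOC100648011, whose highest value was also in control replicate 1, had 3511 to 44411 against 1145 to 5144 and a log2 change of -1.82 ± 0.47. LOC100645655 had 1264 to 4287 against 563 to 1712 and a log2 change of -1.26 ± 0.31. LOC100642270 had 8755 to 39194 against 8028 to 13285 and a log2 change of -0.70 ± 0.23.

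**Figure D3:**
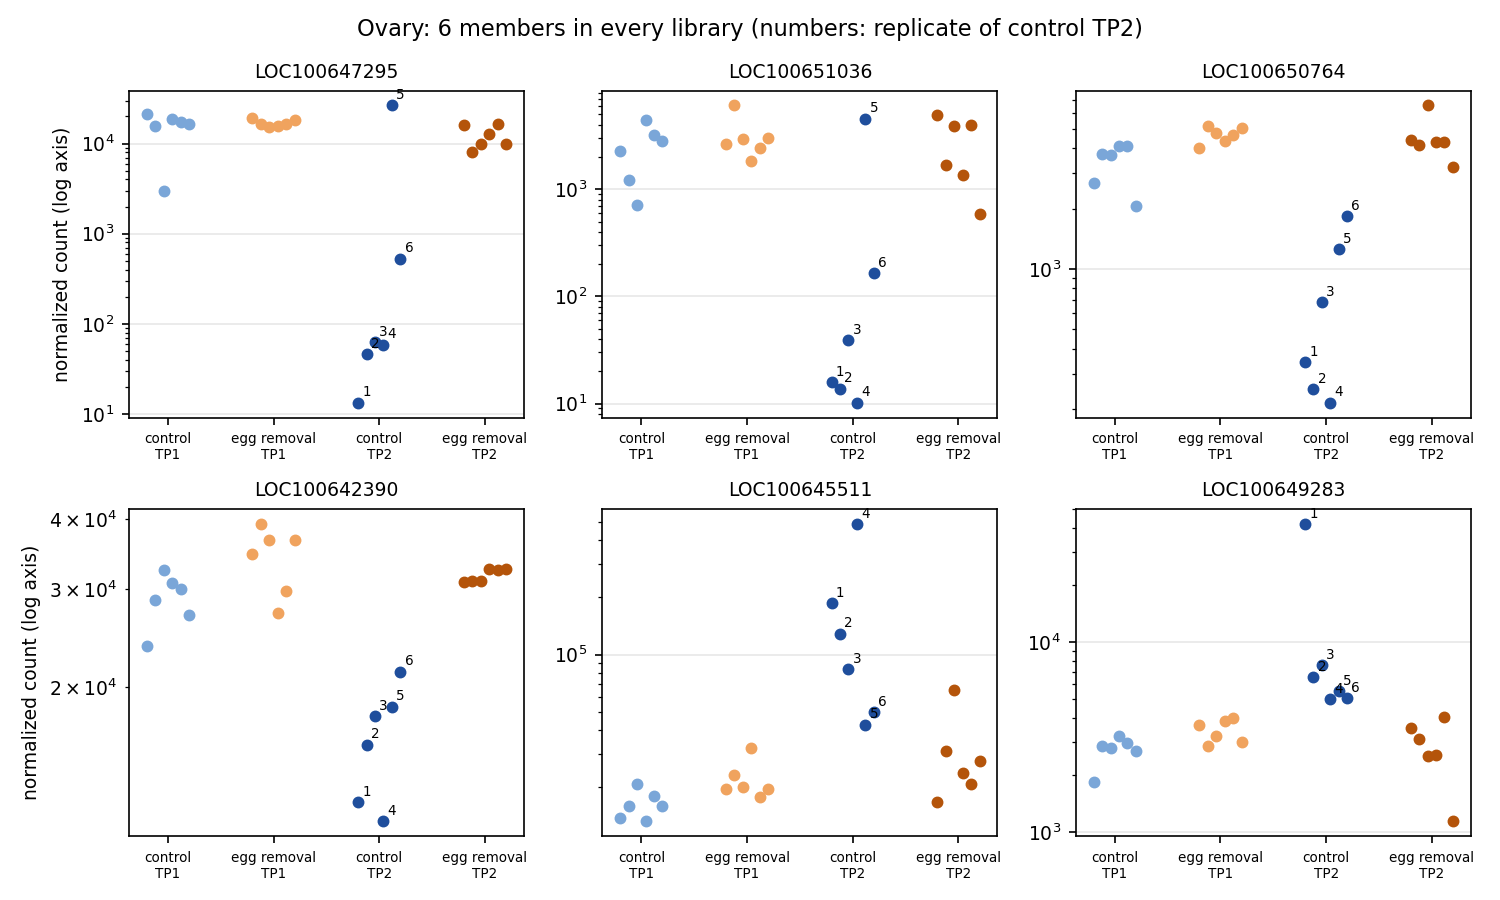
Normalized counts of 6 members in every ovary library on a log axis, by group; points are libraries and the numbers give the replicate of the control TP2 libraries. LOC100647295 and LOC100651036 are low in 5 control TP2 libraries and high in replicate 5, and LOC100645511 and LOC100649283 are above most or all other libraries in control TP2.

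The plot of 6 members shows that the 3 other groups of ovaries stood close together while control TP2 spread widely. The median SD of log2(value + 1) among the 6 libraries was 1.04 over the members in control TP2, compared with 0.43 in egg removal TP2, 0.43 in control TP1 and 0.20 in egg removal TP1. Over all genes it was 0.68 in control TP2 and 0.16 to 0.34 in the other 3. The control TP2 ovaries also stood apart as whole libraries, though not equally. On the first principal component of all genes, which held 55.8% of the variance, they lay between -204 and -19.2 and the other ovaries between -5.31 and 62.2.

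Each control TP2 ovary was therefore compared alone with the range of the 6 egg removal TP2 ovaries. Replicate 1 had 61 members below that range and 16 above it, where 39.4% of all genes were below and 41.2% above. In replicate 4 the counts were 67 and 14, against 38.7% and 42.8%. Replicates 2 and 3 had 41 and 37 members below, against 34.1% and 34.0%, and 22 and 24 above, against 35.6% and 36.7%. For replicates 5 and 6 the counts were 34 and 33 below, against 26.2% and 26.4%, and 14 and 19 above, against 27.3% and 26.9%. In every control ovary more members lay below the range than above it, whereas over all genes the 2 shares were within 5 percentage points of each other. As the members were chosen for high levels in control TP1 ovaries, this is a description too. Without replicates 1 and 4, a setting chosen after seeing the data, 47 members were called, 36 higher and 11 lower, against 22.5% and 22.4% of all genes.

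**Figure D4:**
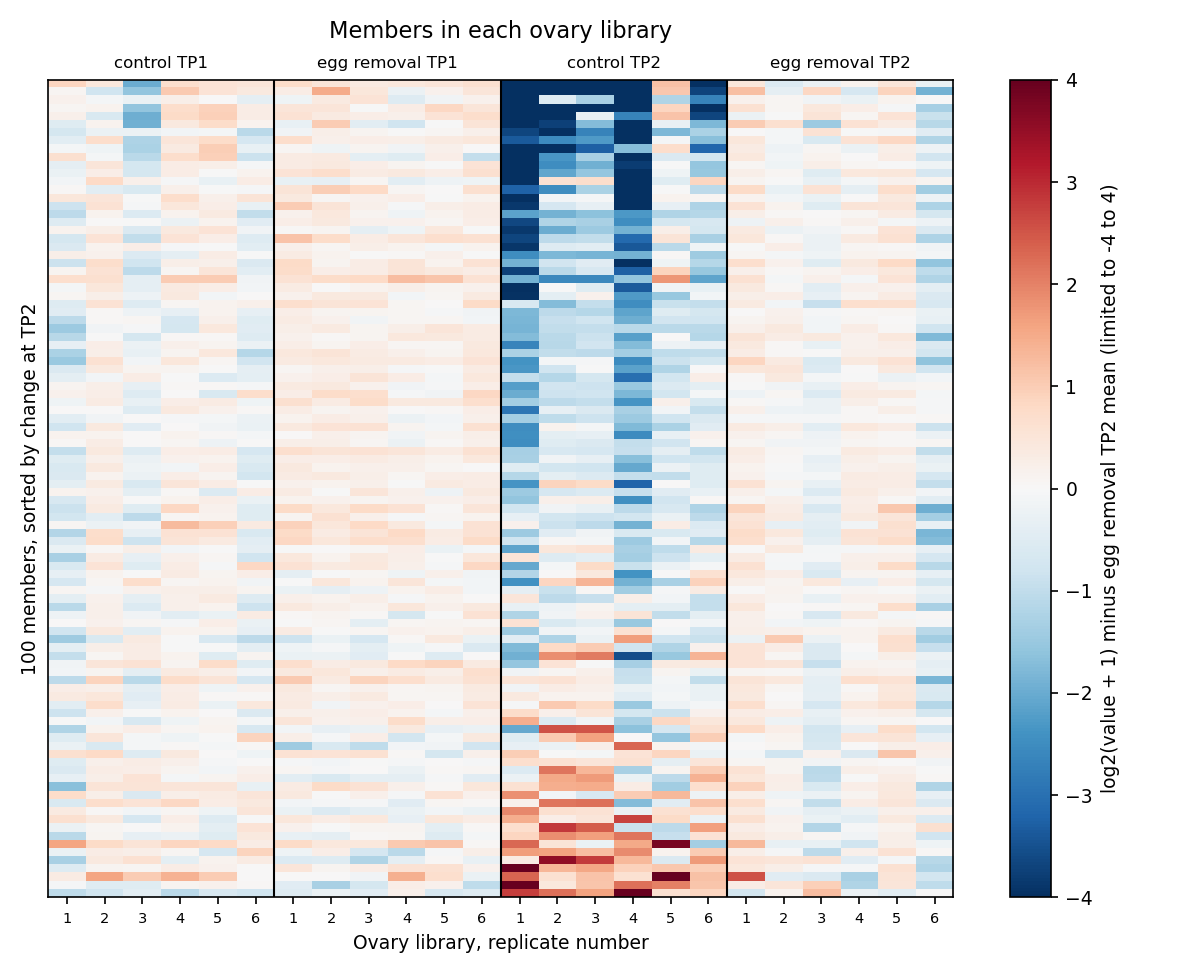
Map of the 100 members (rows, sorted by their change at TP2) in the 24 ovary libraries (columns, by group and replicate), as log2(value + 1) minus the gene's mean in egg removal TP2, limited to -4 to 4. Blue is lower and red higher; control TP2 holds most of both colours, and its replicates 1 and 4 are lower in the most members (61 and 67).

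The map also shows members that were low in replicates 1 and 4 of control TP2 and not in its other libraries. LOC100647689, singled out after its values were seen, had 26.1 and 16.4 normalized counts in these 2 ovaries and 2209 to 5630 in the other 4 controls, compared with 2500 to 3467 in egg removal TP2. Its log2 change of 2.10 ± 1.08 (SE) did not pass the test (adjusted p = 0.0984 by limma). Replicates 1 and 4 were also the ovaries of lowest estimated depth, where 1 read was about 3.16 and 2.54 normalized counts. The values of LOC100647689 in these 2 ovaries thus rest on few reads.

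Between time points, control ovaries changed and egg removal ovaries did not pass the test in any gene. The fit shares an estimate of each gene's spread over all ovary groups, and the wide control TP2 group raises it. The lack of calls in egg removal therefore does not show a lack of change. The control comparison over time uses the libraries behind the choice and shares control TP2 with the comparison above. The members' counts are thus given beside the background and read no further. From TP1 to TP2 in control, 57 members were called, 9 higher and 48 lower, where 61.8% of all genes were called, 31.1% higher and 30.7% lower, and 23.6% and 38.2% of the genes within the level limits. The groups did not overlap for 3 members that were higher and 8 that were lower, against 10.1% and 5.34% of all genes. LOC100647295 fell by 6.19 on the log2 scale (SE 1.10, adjusted p = 0.000120 by limma) and LOC100651036 fell by 4.97 (SE 1.00). LOC100645511 rose by 2.82 (SE 0.42) and LOC100644578 by 1.29 (SE 0.37). The latter had 751 to 2076 normalized counts at TP1 and 832 to 7063 at TP2.

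In egg removal ovaries, no member and no gene was called between TP1 and TP2 (0.00% of 10401 genes by limma), while 3 members and 286 genes had an unadjusted p under 0.05. Weights per library gave 2 members. Here and in the next comparison no share of all genes is given for weights, so these counts show only how the setting moved them. The medians of LOC100647295 were 16518 at TP1 and 11419 at TP2, and those of LOC100642390 were 35672 and 31741. Egg removal and control at TP1 likewise gave no call (0.00% of genes by limma), with 8 members and 1111 genes at an unadjusted p under 0.05, and weights per library called 1 member. The shared estimate of the spread limits this comparison too. The interaction, which is the change with time in egg removal minus that in control, was called for 18 members, 16 positive and 2 negative, against 34.9% of all genes, 17.5% positive and 17.3% negative. This term also uses the control TP1 ovaries by which the members were chosen, so its counts and values are a description. The term was 2.49 ± 0.54 (SE, adjusted p = 0.00904 by limma) for LOC100650764 and -2.46 ± 0.59 (SE, adjusted p = 0.0107 by limma) for LOC100645511. This count rested on control TP2: it was 32 when replicate 5 was left out, 28 when replicate 6 was, and 9 when replicates 1 and 4 both were, against 48.2%, 43.9% and 17.5% of all genes.

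Genes outside the list ran closely with the 2 members of largest distance. Over the 24 ovary libraries, LOC100647295 correlated most with LOC105666734 (Pearson r = 0.99) and LOC100645238 (r = 0.99) on the scale of log2(value + 1). For LOC100651036 these were LOC100645406 and LOC100646668, with r = 0.98 each. None of the 4 is a member, and the values share their libraries and the split between control TP2 and the rest, so this is a description of likeness only.

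The members include 3 pairs of neighbouring genes in the gene order of the reference table, whose assembly may differ from that of the files. LOC100651776 and LOC100651897 are adjacent, and both were called higher in egg removal ovaries at TP2, by log2 1.57 and 0.66. LOC100643194, LOC100652113 and LOC100650879 follow each other. The first 2 were called higher, by 1.03 ± 0.28 and 1.55 ± 0.52 (SE), and the third was not, at -0.58 ± 0.48 (SE, adjusted p = 0.304 by limma). The strand of the counting is not given, so reads of overlapping neighbours could not be told apart.

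In the brain few members changed. Between egg removal and control at TP2, 5 members were called with limma, 2 higher and 3 lower, against 8.57% of 10388 genes, 3.68% higher and 4.89% lower. Their share was thus a little under the background. The median log2 change was 0.00 over the members and 0.00 over all genes. LOC100645609 had 4810 to 5890 normalized counts in control (median 5244) and 3252 to 4270 in egg removal (median 3856). The groups did not overlap, and the log2 change was -0.49 ± 0.10 (SE, adjusted p = 0.00458 by limma). In the ovary the same gene was far more spread in control TP2, at 239 to 4116, than in egg removal TP2, at 2298 to 5017.

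LOC100648500 was higher in egg removal brains at TP2. Its values were 585, 732, 518, 755 and 458 in control and 1021, 1269, 873, 1006 and 962 in egg removal, all above the controls, with a log2 change of 0.77 ± 0.20 (SE, adjusted p = 0.0203 by limma). LOC100647437 had 1364, 1531, 789, 991 and 1112 in control and 1698, 1485, 1555, 1464 and 1630 in egg removal, with overlap and a log2 change of 0.47 ± 0.14 (SE, adjusted p = 0.0430 by limma), and this call was lost in 10 of 17 alternatives. LOC100647879 was lower, with 3266, 5845, 2395, 3033 and 9028 in control and 2334, 2124, 1979, 1653 and 1643 in egg removal, and a log2 change of -1.11 ± 0.26 (SE, adjusted p = 0.0129 by limma). The fifth, LOC100649011, was lower by a log2 of -0.26 ± 0.07. With libraries brought to equal totals, 1 member was called, and it was lower. That setting moved the median of all genes from 0.00 to -0.30 and that of the members to -0.31, so this direction is read no further. The count was 12 when control replicate 3 was left out, 2 when control replicate 6 was, and 3 when egg removal replicate 3 or 4 was.

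The remaining brain comparisons held fewer calls still. At TP1 3 members were called, all lower in egg removal, against 2.37% of genes. They were LOC100645609, with 3820 to 4756 in control and 2628 to 3770 in egg removal and a log2 change of -0.44 ± 0.09 (SE, adjusted p = 0.0140 by limma), LOC100645932 at -0.57 ± 0.13 and LOC100645161 at -0.34 ± 0.09. From TP1 to TP2 in control, 1 member was called, against 2.57% of genes: LOC100648500, from a median of 1024 to 585, a log2 change of -0.77 ± 0.19 (SE, adjusted p = 0.0327 by limma). These 2 comparisons use the libraries behind the choice and rest on few libraries: the TP1 count was 1 without control replicate 3, 4 or 5 or without egg removal replicate 1, 2 or 4, and the count over time was 0 without TP1 replicate 2, 4 or 6 or TP2 replicate 1 or 6, 2 without TP2 replicate 2 and 3 without TP2 replicate 3. In egg removal brains no member was called between time points, against 0.0481% of genes, and 5 members and 607 genes had an unadjusted p under 0.05. With weights per library 2 members were called there, and no share of all genes is given for that setting. None was called in the interaction (0.00% of genes), where 1 member and 446 genes had an unadjusted p under 0.05.

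The 50 members called higher in the ovary at TP2 had a median log2 change of 0.03 in the brain at TP2, with 30 positive and 20 negative, and 1 of them was called higher and 2 lower there. For the 10 that were lower in the ovary the brain median was 0.01, and 1 was called lower. In the fat body the same 2 sets had medians of -0.34 and -0.86, with no member called. The 40 members not called in the ovary had a brain median of -0.08, with 1 called higher. Their fat body median was -0.62, with 2 called lower. No test of the difference between tissues was run.

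A single member stood apart from the rest in the brain. LOC100645916, singled out after its values were seen, ranged from 546 to 4531530 normalized counts over the 22 brain libraries. It followed LOC100644055, a gene outside the list that was the most abundant gene in 9 of these libraries. In those 9, LOC100645916 held 193619 to 4531530 and made up 23.1% to 90.5% of the summed level of all 100 members. In the other 13 it held 546 to 21507. The 9 libraries were 2 of 6 in control TP1, 3 of 6 in egg removal TP1, none of 5 in control TP2 and 4 of 5 in egg removal TP2. Its log2 change at TP2 was 6.03 ± 2.33 (SE) and did not pass the test (adjusted p = 0.114 by limma). The mean in control TP1 by which it entered the list thus came mainly from 2 of the 6 brain libraries, at 193619 and 472750.

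**Figure D5:**
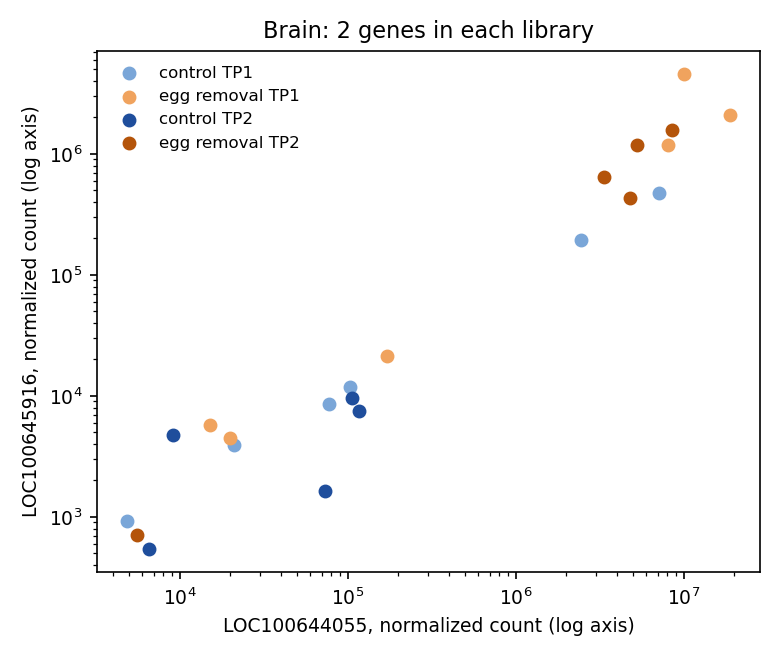
LOC100645916 against LOC100644055 in each of the 22 brain libraries, in normalized counts on log axes; colour gives the group. A set of 9 libraries lies at or above 193619 for LOC100645916 and 13 lie at or below 21507, and 4 of the 5 egg removal TP2 brains are in the upper set.

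In the brain the members' median ppm was mostly lower in libraries where LOC100644055 was high. In egg removal TP1, replicates 1 and 3 had 34.5 and 35.1 ppm, where LOC100644055 took 14.9% and 23.3%. Replicate 5 had 85.9 ppm, where it took 0.0563%. On the scale of log2(value + 1), the median Pearson r of the members with LOC100644055 was -0.13. The library medians of the members were 34.5 to 85.9 ppm in egg removal TP1 and 57.9 to 91.7 ppm in control TP1, and LOC100644055 took up to 23.3% of a library in the first group and up to 13.6% in the second. With this gene as a covariate, 10 members were called at TP2 (7 higher, 3 lower), 4 at TP1 (1 higher, 3 lower) and 5 over time in control (1 higher, 4 lower), against 13.5%, 3.79% and 6.32% of all genes.

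In the fat body, where the members were scarce, the comparison free of the libraries behind the choice gave 2 calls with limma at TP2, both lower in egg removal, against 4.60% of 10383 genes. LOC100651365 had 913, 290, 349 and 380 normalized counts in control TP2 and 64.5 to 292 (median 118) in egg removal TP2. All but 1 of the egg removal libraries were below the controls, and the log2 change was -1.67 ± 0.43 (SE, adjusted p = 0.0302 by limma). LOC100651767 had 368, 183, 134 and 54.1 in control and 10.0 to 90.3 in egg removal, with overlap and a log2 change of -1.91 ± 0.54 (SE, adjusted p = 0.0465 by limma). The calls rested on few libraries: the count was 0 without control replicate 1 or 3 or without egg removal replicate 2, 3 or 4, 1 without egg removal replicate 1, 4 without control replicate 2 or egg removal replicate 5, and 7 without control replicate 5. The median log2 change was -0.52 over the members, 0.00 over all genes and 0.06 over the genes within the level limits. It was negative in 71 members and positive in 29, where 49.75% of all genes were positive. The members were chosen for low levels in control TP1 fat bodies, so this direction is a description and not independent of the choice.

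At TP1, where the control libraries are those of the choice, 24 members were called in the fat body, 8 higher and 16 lower, against 32.4% of genes, 16.5% higher and 15.9% lower. That split changed with equal library totals: none was then higher and 50 were lower, against 56.3% of all genes lower, and the median of all genes moved from -0.09 to -0.80, so a direction is given relative to that shift. LOC100647734, which was higher in egg removal ovaries at TP2, had 45.9 to 71.5 in control and 12.4 to 37.7 in egg removal fat bodies, without overlap, and a log2 change of -1.36 ± 0.28 (SE, adjusted p = 0.00121 by limma). LOC100651776 had 92.6 to 200 (median 138) against 19.0 to 145 (median 35.8), and its high egg removal library was replicate 1, with a log2 change of -1.71 ± 0.41 (SE, adjusted p = 0.00362 by limma). LOC100643769 had 330 to 584 against 668 to 1096, without overlap, and a log2 change of 0.73 ± 0.21 (SE, adjusted p = 0.0108 by limma), which was -0.01 with equal totals. LOC100651590 had 72.6 to 219 against 220 to 616 and a log2 change of 1.18 ± 0.36 (SE, adjusted p = 0.0168 by limma), and it was not called with equal totals. The count was 15 without control replicate 2 and 14 without egg removal replicate 2, 4 or 6.

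Over time the fat body gave few calls. In egg removal, 4 members were called, against 5.99% of genes: LOC100647734 was higher at TP2, from a median of 25.3 to 49.0, by a log2 of 1.00 ± 0.28 (SE, adjusted p = 0.0378 by limma), and LOC100643643, LOC100644869 and LOC100643769 were lower, by -1.73 ± 0.49, -0.99 ± 0.29 and -0.70 ± 0.21. With equal totals, 5 were higher and none lower, against 17.7% of all genes higher, and the median of all genes moved from 0.04 to 0.46. The count was 0 without TP1 replicate 2, 3 or 6 or without TP2 replicate 1, 4 or 5, it was 1 without TP2 replicate 6, and it was 10 without TP2 replicate 3. In control no member was called (1.24% of genes; 7 members and 1910 genes at an unadjusted p under 0.05; 7 members with weights per library). In the interaction none was called either, against 1.05% of genes, and 7 members and 1934 genes had an unadjusted p under 0.05. There 13 members were called with weights per library, and 1 without control TP2 replicate 2. The shares of all genes given here over time in control and for the interaction are from the main fit. Member counts with weights or without a library are not to be set against them and show only how the setting moved the count.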

How the data were processed

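Per the labels, RNA of 1 tissue from a single queen was made into stranded TruSeq mRNA libraries and sequenced on 2 lanes. The deposited values are a signal on a normalized scale of read counts, in 1 table for each tissue, and within a table the median log ratio to the gene means was equal in all columns. Per the submitters' processing notes, kallisto 0.46.1, R 4.0.1 and DESeq2 1.28.1 were used, with no role or order stated. Build, annotation and filter: not given in the sources used here. Values carry decimals, so no count model was used. The labels list 70 samples, and fat body control TP2 replicates 4 and 6 had no column.

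In R 4.3.3, limma 3.58.1 (trend and robust options, statmod 1.5.0) was fitted to log2(value + 1) per tissue, as 4 group means, on genes with a mean of at least 1 in 1 group. The fit shares an estimate of each gene's spread over all groups of a tissue. An SE or p-value therefore does not measure the spread of only the groups compared, and control TP2 ovaries spread the most. P-values were adjusted over all genes of a comparison, and calls were made at an adjusted p under 0.05. Fold changes on this scale understate those of low genes, and genes with near-identical copies could not be told apart. Since depth per value is not known exactly, no counting interval is given.

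The members and lists were chosen with earlier results of these data known. Named were the 5 members of largest distance under the rule, and the called members with the smallest p: 5 per direction for the ovary treatment comparison at TP2 and the ovary control comparison over time, otherwise 2 where at least 5 were called, else 1, and 1 for an interaction; counts of 5 or fewer are named in full. Of 9 fixed gene lists, 1 had a gene identifiable by name (Kr-h1, a transcription factor), and no member was in any. Alternatives were a pseudocount of 10, no filter, equal totals, 2-group fits, library weights, a replicate block, LOC100644055 as a covariate (brain), and each library left out. Where no share of all genes stands beside an alternative's member count, that count shows only how the setting moved it. In no comparison did the deviations of every same-numbered pair correlate above 0.1, so the replicate numbers were not taken as pairs. That limit cannot exclude pairing, since part of the pairs were above it, and the replicate block is given as an alternative.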

Additional observations from a re-analysis of the deposited data

Results flagged for a closer look

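Of 76 groups of values of named members, 18 held a library that stood far from the others of its group. The gap was taken on normalized counts, whose skew favours flags at the highest library. The groups share libraries, and part of the members were named for a small p. No chance rate is therefore set beside this count. Control TP2 ovaries gave 9 of them. Replicate 5 was the highest for LOC100647295 (26544, next 529), LOC100651036 (4578, next 166), LOC100648691 (22685, next 8118), LOC100645988 (11732, next 4227) and LOC100651776 (6666, next 2372). Replicate 1 was the highest for LOC100649283 (41928, next 7584), LOC100648011 (44411, next 12055) and LOC100642270 (39194, next 16756). Replicate 4 was the highest for LOC100645511 (488108, next 186906).

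Among the other ovaries, control TP1 replicate 3 was low for LOC100647295 (2965, next 15818) and replicate 1 high for LOC100648691 (4850, next 3002). Egg removal TP1 replicate 2 was high for LOC100651036 (6079, next 3008). In egg removal TP2, replicate 1 was high for LOC100648691 (4060, next 1928), and replicate 3 was high for LOC100650764 (6569, next 4431) and LOC100645511 (64710, next 30855). In the fat body, control TP1 replicate 4 was low for LOC100643769 (330, next 529), egg removal TP1 replicate 1 was high for LOC100651776 (145, next 43.4), and control TP2 replicate 1 was high for LOC100651365 (913, next 380).

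The change with time differed between treatments for 9 named members, all in the ovary, by limma's interaction term (6 queens per group, adjusted p over 10401 genes). The term includes the control TP1 ovaries by which the members were chosen. Most of these members were also named for a small p in ovary comparisons that share the control TP2 libraries with this term. Calls among them were thus favoured by the naming. Over all genes 34.9% were called for this term. The count of named members is therefore not to be set against that share, and these values are a description. The change in egg removal minus that in control was 5.67 for LOC100647295 (adjusted p = 0.0146), 4.52 for LOC100651036 (0.0225), 2.49 for LOC100650764 (0.00904), 1.41 for LOC100651776 (0.0129), 1.24 for LOC100649588 (0.0159), 0.96 for LOC100647734 (0.0170) and 0.76 for LOC100642390 (0.0118). It was -2.46 for LOC100645511 (0.0107) and -1.98 for LOC100649283 (0.0138).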

How the results depend on the processing

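The counts of called members in the ovary at TP2 (60) and over time in control (57) stayed within 1.5 times under every alternative run except the fit of the 2 groups alone, which gave 37 at TP2 (33 higher, 4 lower). Leaving out each library in turn gave 53 to 63 and 49 to 61. Weights per library gave 54 ovary members in the interaction, 1 between treatments at TP1 and 2 over time in egg removal, against 18, 0 and 0, and without control TP2 libraries 1 and 4, a setting chosen after seeing the data, the interaction gave 9. In the brain the counts were 3, 5 and 1 at TP1, at TP2 and over time in control. Equal totals gave 1, 1 and 0, weights per library 11, 20 and 7, and LOC100644055 as a covariate 4, 10 and 5. Over time in brain control the fit of the 2 groups gave 0, and in brain egg removal weights gave 2 against 0. In the fat body, equal totals gave 50 members at TP1 against 24. Weights per library gave 40 at TP1, 25 at TP2, 7 over time in control, 14 over time in egg removal and 13 in the interaction, against 24, 2, 0, 4 and 0. The 2-group fit gave 0 at TP2 and 2 over time in egg removal. The cause of these differences was not tested. The share of all genes called is not given beside the member counts of the settings in this paragraph. These counts show how far a count moved, not how members compare with other genes. With a replicate block the counts that moved by over 1.5 times were 8 in the brain at TP2, 2 over time in brain control and 1 in the fat body at TP2; in the ovary the replicate block gave 60, 58 and 19 for treatment at TP2, time in control and the interaction. Same-numbered samples had deviations that correlated between -0.59 and 0.50 in the brain at TP1 (3 of 6 pairs above 0.1) and between -0.02 and 0.69 in the ovary at TP1 (4 of 6), and in no comparison was every pair above 0.1. Leaving out each library in turn gave 1 to 4, 2 to 12 and 0 to 3 in the brain, 14 to 25 and 0 to 7 in the fat body at TP1 and TP2, 0 to 10 over time in fat body egg removal, 0 to 1 in the fat body interaction and 13 to 32 in the ovary interaction. Equal totals shifted the median of all genes at TP1 and TP2 to -0.29 and -0.30 in the brain and to -0.80 and -0.27 in the fat body. Of 669 values of named members under alternatives, 620 kept their direction and call, 48 kept their direction without the call, and 1, LOC100643769 in the fat body at TP1, turned to -0.0133 with equal totals. Depth limits the fat body, where the scarcest member rests on about 9.83 reads per control TP1 library. Other groups can lie lower: LOC100650406 had a mean of 4.72 normalized counts in egg removal TP1, with a lowest value of 0, against 10.7 in control TP1.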
